A study of Mus musculus with 8 samples.

Results

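The Ccdc genes are the mouse genes whose symbol begins with Ccdc and a number, given to proteins that contain a coiled-coil domain and at first had no better name. Members were the probe sets that the platform annotation pairs with exactly 1 gene symbol of that form, with 1 probe set per gene, the one of the highest mean log2 intensity over all arrays. There were 119 such genes, covered by 216 of the 45101 probe sets, among 18194 genes on the array. The floor was set at log2 4 (intensity 16), and a gene was tested if at least 2 of the 8 arrays reached it. By this rule 112 of the 119 Ccdc genes were tested, among 13802 genes in all, and 7 were low throughout: Ccdc125, Ccdc162, Ccdc177, Ccdc191, Ccdc201, Ccdc42os and Ccdc85a. Ccdc42os is a member by its letters only, as the symbol stands for a transcript opposite to Ccdc42, and Ccdc201 is annotated as a non-coding RNA.

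Whole testes gave the RNA, from males aged 28 postnatal days on a mixed C57BL6/6J and 129 background, which was hybridized to 1-colour oligonucleotide arrays. All the mice, the controls too, were Dmrt1 flox/flox, so both copies of Dmrt1, which encodes a transcription factor of Sertoli cells and germ cells, could be cut by Cre recombinase. The control group had no Cre (n = 2), the second group carried Dhh-Cre (n = 2) and the third SF1-cre (n = 4), called Sf1-Cre here after the other name of Nr5a1. The submitters describe both promoters as specific to Sertoli cells, the somatic cells that nurse germ cells in the tubule. The labels call the arrays of a group biological replicates.

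A coiled coil is a rope of helices wound around each other, and proteins that carry one often serve as rods, rulers or tethers in large assemblies. In the testis the best known Ccdc proteins build the axoneme, the microtubule core of the sperm tail, where they hold dynein arms and linkers at fixed spacings. Round spermatids, the cells that have completed meiosis, make the transcripts for the tail and the acrosome. Other Ccdc proteins act at centrosomes, on endosomes, in the nucleus or outside the cell in many cell types, so the shared name is no sign of a shared function.

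Promoter windows of Ccdc genes are shown because so many of these genes move together between the groups. They come from RefSeq on build GRCm38.p6, which held a window for 96 of the 119 genes, and each is the 250 bases before the start site, read 5′ to 3′ on the strand of the gene. Ccdc151, Ccdc175 and Ccdc173 were lower in both mutant groups and Ccdc3 was higher in both. Capitals mark an X-box (GTTNCC and its reverse complement GGNAAC, 2 bases apart, the site of RFX factors known from cilia genes) in Ccdc151 and Ccdc175, and the cyclic AMP response palindrome (TGACGTCA, a site of CREB and CREM factors) in Ccdc173. The Ccdc3 window, at chr2:5137526-5137775 on the plus strand, held neither of them. The other windows lie on the minus strand, at chr9:22002635-22002884, chr12:72185030-72185279 and chr2:69789487-69789736.
Ccdc151: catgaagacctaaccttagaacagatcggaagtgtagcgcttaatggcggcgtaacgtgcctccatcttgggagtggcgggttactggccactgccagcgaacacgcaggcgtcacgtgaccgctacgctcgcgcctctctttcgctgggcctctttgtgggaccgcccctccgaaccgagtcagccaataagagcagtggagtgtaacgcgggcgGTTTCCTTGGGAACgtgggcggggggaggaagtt
Ccdc175: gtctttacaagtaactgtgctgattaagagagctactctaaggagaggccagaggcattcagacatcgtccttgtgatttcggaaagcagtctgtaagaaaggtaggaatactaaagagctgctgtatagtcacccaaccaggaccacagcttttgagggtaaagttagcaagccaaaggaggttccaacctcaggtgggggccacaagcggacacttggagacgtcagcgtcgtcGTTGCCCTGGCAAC
Ccdc173: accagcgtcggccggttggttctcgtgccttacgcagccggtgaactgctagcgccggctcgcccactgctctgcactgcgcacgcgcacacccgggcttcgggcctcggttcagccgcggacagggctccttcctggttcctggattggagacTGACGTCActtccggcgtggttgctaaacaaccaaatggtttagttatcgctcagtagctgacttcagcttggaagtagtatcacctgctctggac
Ccdc3: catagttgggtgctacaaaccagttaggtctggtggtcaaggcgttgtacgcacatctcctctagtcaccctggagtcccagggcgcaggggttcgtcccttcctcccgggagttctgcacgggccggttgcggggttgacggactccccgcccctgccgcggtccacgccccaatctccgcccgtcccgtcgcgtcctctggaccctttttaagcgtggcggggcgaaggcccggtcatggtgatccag
The matches begin 34, 14 and 96 bases before the start sites of Ccdc151, Ccdc175 and Ccdc173. Searched on both strands over 300 bases (250 before and 50 after the start), the X-box lay in 3 of the 64 windows of Ccdc genes lower in both mutant groups, those of Ccdc151, Ccdc175 and Ccdc180, which is 4.69%. It lay in 0.451% of all 32851 windows and in 0 of the 28 windows of Ccdc genes higher in both. The palindrome lay in 3 of the 64 windows, those of Ccdc130, Ccdc173 and Ccdc86, against 1.79% of all windows. The shorter RFX site GTTGCCA, which can overlap an X-box, lay in 9.38% of the 64 windows against 4.38% of all, and ACANTGT, the core of the Dmrt1 site, in 14.1% against 7.54%. TATAAA, the TATA box, lay in 12.5% against 13.6%. These are counts of letters in few windows, they were not tested, and a gene can have more than 1 window.

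The arrays of 1 group were close to each other, with Pearson's r across probe sets of 0.980 or above within every group and of 0.804 to 0.887 between controls and mutants. The Dmrt1 signal had log2 levels of 8.50 and 8.76 in the controls, 7.10 to 7.89 in the Sf1-Cre arrays, and 10.43 and 9.94 in the arrays labelled Dhh-Cre, where it was higher and not lower. Every direction that involves Dhh-Cre therefore rests on that label. Of 33 spermatid marker genes, 33 were called lower in Sf1-Cre than in control and 32 in Dhh-Cre. Their summed intensity was 172219 to 183517 in the controls, 5402 to 19824 in Dhh-Cre and 11869 to 33352 in Sf1-Cre. The markers of fibroblasts rose in 9 of 9 tested, from a summed intensity of 2724 to 2754 in the controls to 20576 to 24507 in Dhh-Cre and 19705 to 21995 in Sf1-Cre. Markers of the epididymis, the duct beside the testis, set 3 arrays apart: their summed intensity was 4410 in Sf1-Cre replicate 1, 1494 in Sf1-Cre replicate 3 and 3252 in Dhh-Cre replicate 1, against 57 to 167 in the other 5 arrays. Most of it in those 3 arrays was Spink8, and of the 6 such genes on the array Lcn5 and Rnase10 lay under the floor throughout. In bulk tissue, fewer cells of a type and less RNA per cell cannot be told apart, and the part that these markers play in any Ccdc difference was not tested.

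More Ccdc genes were lower than higher in both mutant groups, while among all genes more were higher. In Sf1-Cre against control, 65 of the 112 tested Ccdc genes were called lower and 34 higher, 99 in all, at an adjusted p under 0.05, where 33.2% of all tested genes were called lower and 46.6% higher, 79.8% in all. Their median log2 difference was -1.28, against 0.34 over all genes. In Dhh-Cre against control, 64 were called lower and 30 higher, 94 in all, against 30.5% and 49.1% of all genes, 79.6% in all, and the median was -1.20 against 0.54. The 2 comparisons share the control arrays. Each count depends on the scale: with every array centred on housekeeping genes, the median of all genes moved to -1.53 in Sf1-Cre and -1.34 in Dhh-Cre, and the Ccdc genes were split into 94 lower and 9 higher in Sf1-Cre and 91 lower and 9 higher in Dhh-Cre. The share of higher among the called Ccdc genes went from 34.3% to 8.74% and from 31.9% to 9%.

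Put together, 60 of the 112 Ccdc genes, 53.6%, were called lower in both mutant groups, against 28.6% of all tested genes, and 30, 26.8%, were called higher in both, against 43% of all. Another 22 were called in 1 comparison or in neither, and 0 were called in opposite directions, against 0.993% of all genes (limma; at an unadjusted p under 0.05 the number was also 0). Both classes hold members that passed the filter through the group where they are high. All 60 lower members had a control mean at the floor or above, as had 88.3% of all tested genes. Of these 60, 42 had a Dhh-Cre mean at the floor or above and 52 an Sf1-Cre mean. Ccdc159 and Ccdc187 lay under it in every mutant array and could enter the test only through the controls. Of the 30 higher members, 8 had a control mean under the floor and could enter only through the mutant arrays. Among the 86 members whose mean reached the floor in every group, 42 were lower in both (48.8%, against 23.7% of such genes overall) and 22 were higher in both (25.6%, against 44.5%). Under housekeeping centring 90 were lower in both and 7 higher in both, and 7 of the 30 risen genes, Ccdc12, Ccdc137, Ccdc167, Ccdc32, Ccdc47, Ccdc59 and Ccdc6, turned to lower in both.

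**Figure D1:**
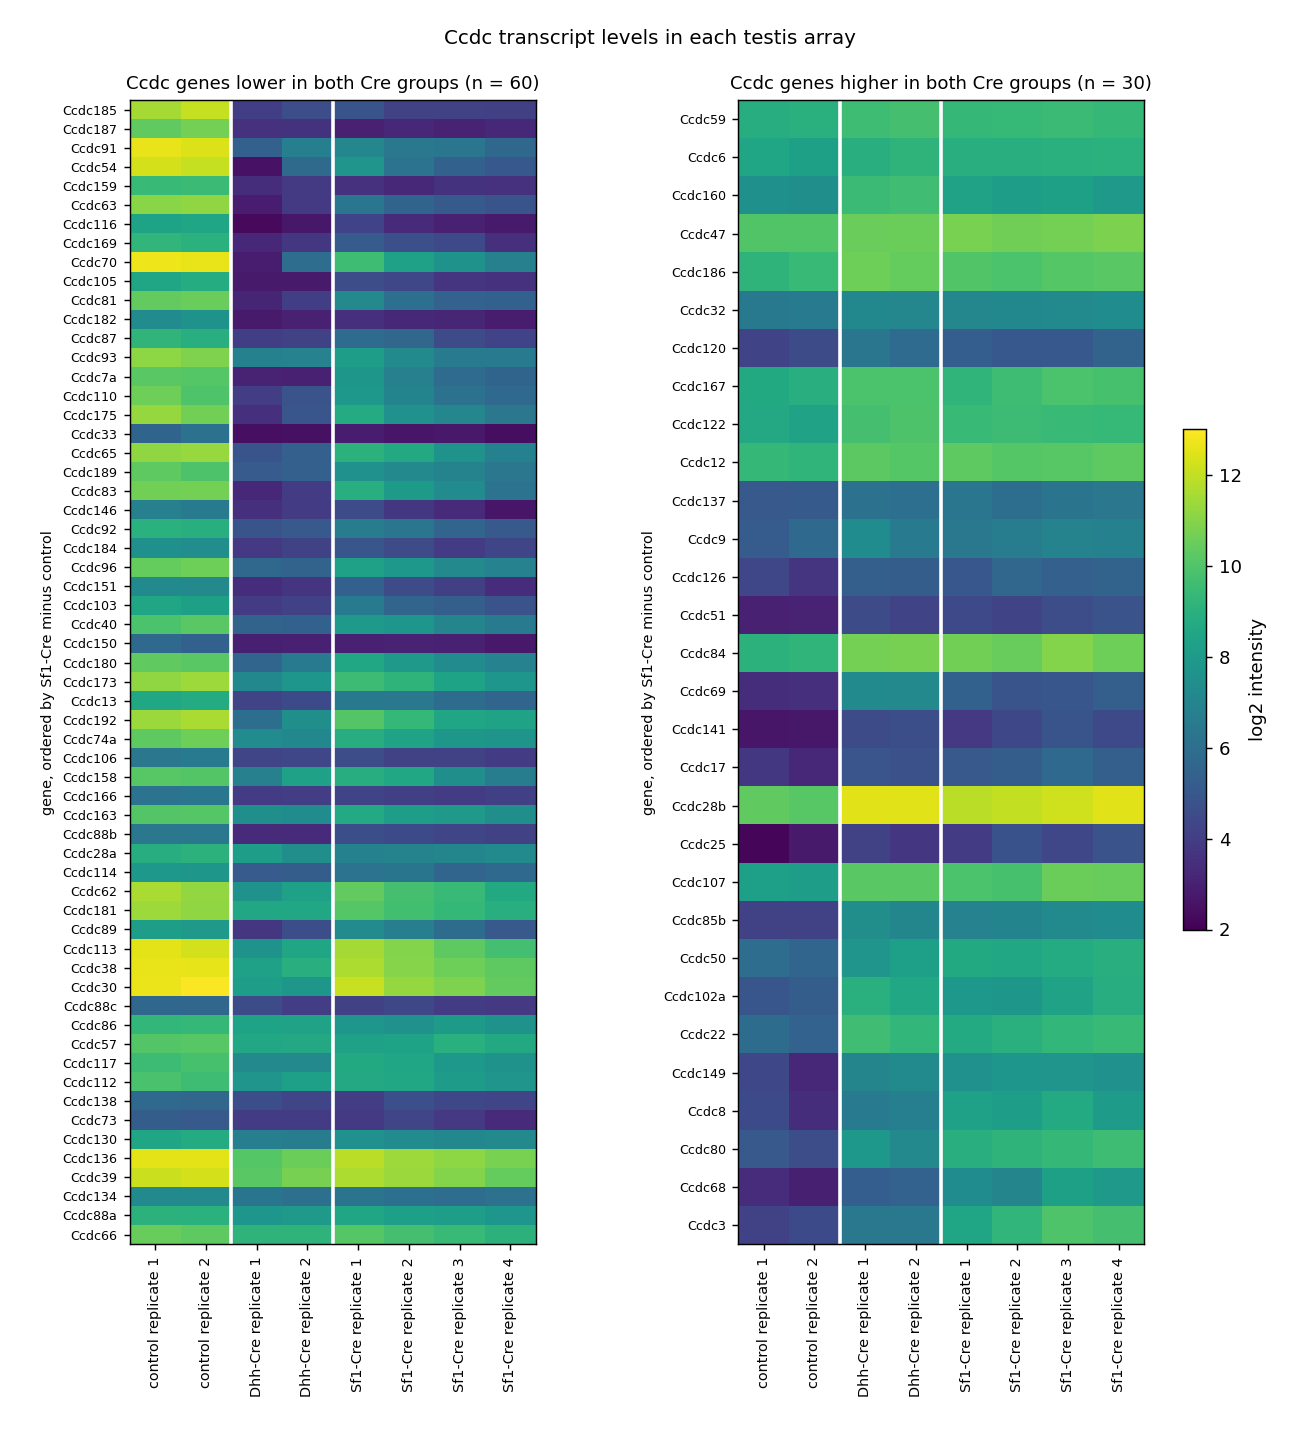
Log2 intensity (colour, from 2 to 13) of the 60 Ccdc genes called lower in both Cre groups, at left, and of the 30 called higher in both, at right, with 1 column per array and 1 row per gene, ordered by the difference between Sf1-Cre and control. White lines part the control, Dhh-Cre and Sf1-Cre arrays; in the left panel every row is brightest in the 2 control columns, and the Dhh-Cre columns of most of its rows are darker than the Sf1-Cre columns.

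Of the axonemal genes 13 were tested, and all 13 fell in both mutant groups, with a median log2 difference of -2.81 in Sf1-Cre and -4.34 in Dhh-Cre. Over all tested genes 33.2% were called lower in Sf1-Cre and 30.5% in Dhh-Cre. Ccdc39 and Ccdc40 encode the partner proteins of the molecular ruler that sets the repeat of the axoneme. The ruler gene Ccdc39 had log2 levels of 12.14 and 12.31 in the controls, 10.19 and 10.74 in Dhh-Cre and 11.64, 11.36, 10.95 and 10.38 in Sf1-Cre, so even the lowest mutant array was above 10. Its partner Ccdc40 read 9.87 and 10.20 in the controls, 5.49 and 5.42 in Dhh-Cre and 7.97, 7.77, 7.02 and 6.58 in Sf1-Cre. Both sets of mutant arrays lay below both controls for each gene. The log2 difference was -1.14 ± 0.34 (SE) in Sf1-Cre and -1.75 ± 0.39 in Dhh-Cre for Ccdc39 (adjusted p = 0.0151 and 0.00373), and -2.70 ± 0.38 and -4.58 ± 0.43 for Ccdc40 (adjusted p = 0.00028 and 3.76e-05). The Sf1-Cre call of Ccdc39 needs both controls, since it was lost without control replicate 1 (adjusted p = 0.0573) and without control replicate 2 (0.0902); the single control left is then taken to vary like the other groups.

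The outer dynein arms, the motors that drive the beat, are fixed to the doublets by a docking complex that includes Ccdc114 and Ccdc151. Ccdc114 lay at 7.85 and 7.82 in the controls, 5.15 and 5.23 in Dhh-Cre and 6.18, 6.27, 5.57 and 5.74 in Sf1-Cre. Ccdc151 lay at 7.28 and 7.20, 3.42 and 3.67, and 5.39, 4.57, 4.07 and 3.41 in the same order. Ccdc63, a sperm relative of Ccdc114, had the deepest fall of the axonemal genes: it read 11.03 and 11.19 in the controls, 2.89 and 3.88 in Dhh-Cre and 6.30, 5.53, 5.12 and 4.85 in Sf1-Cre. That is 50.4-fold lower in Sf1-Cre (-5.66 ± 0.42, adjusted p = 9.61e-06) and at least 138-fold lower in Dhh-Cre (-7.72 ± 0.49, adjusted p = 6.45e-06), the bound because the Dhh-Cre mean lies under the floor. The fall of Ccdc114 was smaller, -1.90 ± 0.22 in Sf1-Cre and -2.65 ± 0.25 in Dhh-Cre. Ccdc103, whose product helps dynein arms attach, fell by 2.81 and by 4.34 on the log2 scale.

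The nexin-dynein regulatory complex links neighbouring doublets, and Ccdc65 is one of its core subunits. Ccdc65 read 11.19 and 11.29 in the controls, 4.87 and 5.38 in Dhh-Cre and 9.08, 8.68, 7.66 and 6.85 in Sf1-Cre. No mutant array overlapped the controls, and every Sf1-Cre array was above both Dhh-Cre arrays. The difference from control was -3.17 ± 0.57 in Sf1-Cre (adjusted p = 0.00111) and -6.11 ± 0.65 in Dhh-Cre (adjusted p = 6.71e-05). Ccdc113 and Ccdc96, whose products work together in the axoneme, showed the same order of groups. Ccdc113 had 12.54 and 12.24 in the controls, 7.62 and 8.51 in Dhh-Cre and 11.53, 10.97, 10.29 and 9.73 in Sf1-Cre, a fall of 20-fold in Dhh-Cre and 3.39-fold in Sf1-Cre, the latter not called without control replicate 1 (adjusted p = 0.0735). Ccdc96 had 10.40 and 10.57, 5.71 and 5.49, and 8.29, 7.86, 7.17 and 6.86. The other axonemal members were Ccdc105, a tektin-like protein, Ccdc173, which lies inside the doublets, Ccdc181, a microtubule-binding protein of the sperm tail, and Ccdc189. They ranged from -1.79 (Ccdc181) to -4.61 (Ccdc105) in Sf1-Cre and from -2.71 (Ccdc181) to -4.66 (Ccdc105) in Dhh-Cre. The last is a bound, with the Dhh-Cre mean, which is under the floor, set to it.

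Axonemal genes outside the Ccdc family moved alongside. Of 37 tested partner genes (regulatory complex, dynein, radial spoke and tektin genes), 34 were called lower in Sf1-Cre, with a median of -2.54, and 32 in Dhh-Cre, with a median of -4.17. That is 91.9% and 86.5%, against 33.2% and 30.5% of all tested genes. Drc1, which encodes a partner of Ccdc65 in the regulatory complex, had mean log2 levels of 10.93 in the controls, 5.86 in Dhh-Cre and 7.93 in Sf1-Cre. Gas8, another subunit, differed from control by -2.36 in Sf1-Cre and -2.21 in Dhh-Cre. Of the 37, 2 rose in both groups: Dnah11, a dynein heavy chain gene, by 0.98 and 1.46, and Rsph4a, a radial spoke head gene known from motile cilia, by 7.05 and 4.24. Among the 13 axonemal Ccdc genes no such rise was called in either comparison (limma; the 13 also passed as lower at an unadjusted p under 0.05).

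**Figure D2:**
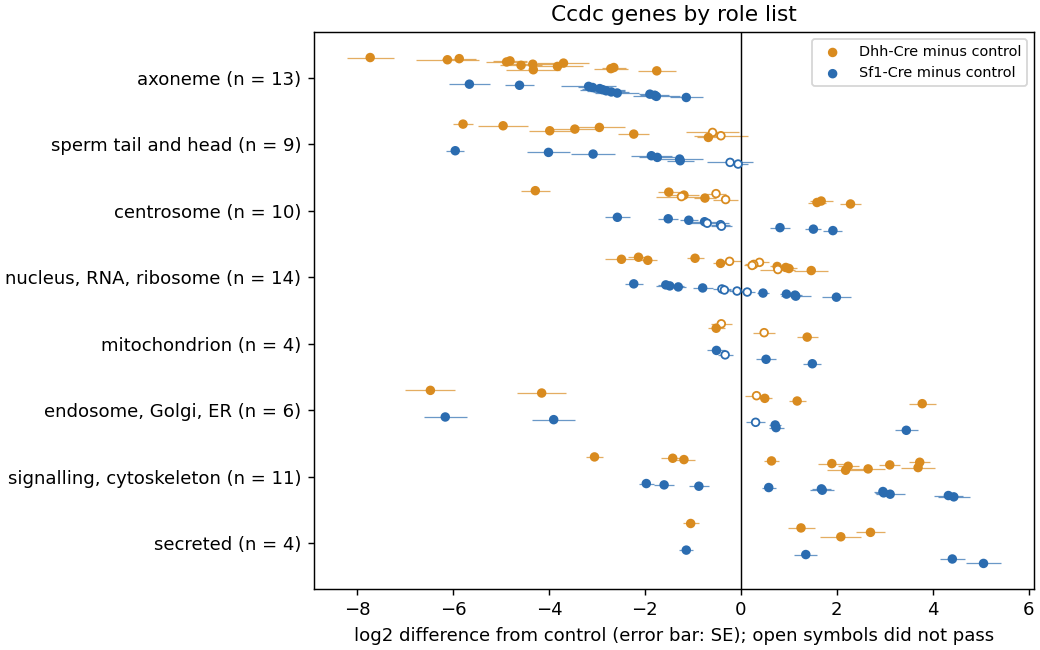
Log2 difference from control, with its standard error, of every tested Ccdc gene in a role list; orange points are Dhh-Cre and blue points Sf1-Cre, and open points did not pass an adjusted p under 0.05. All 13 axonemal genes lie left of 0 in both groups, whereas 8 of 11 genes of signalling and the cytoskeleton and 3 of 4 secreted ones lie to the right.

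Genes of the sperm head and tail outside the axoneme also fell, in 7 of 9 tested members in each comparison, 77.8%. The share called lower over all tested genes was 33.2% in Sf1-Cre and 30.5% in Dhh-Cre. Ccdc38, whose product acts at the manchette, the microtubule sleeve that shapes the spermatid head, was among the most strongly read Ccdc genes, at 12.63 and 12.61 in the controls, 8.32 and 8.96 in Dhh-Cre and 11.66, 11.01, 10.58 and 10.27 in Sf1-Cre. Its difference was -1.74 ± 0.37 in Sf1-Cre (adjusted p = 0.00298) and -3.98 ± 0.43 in Dhh-Cre (adjusted p = 7.25e-05). Ccdc159 fell to the floor in both: it read 9.40 and 9.48 in the controls, 3.43 and 3.88 in Dhh-Cre and 3.58, 3.20, 3.61 and 3.58 in Sf1-Cre, at least 43.5-fold lower in each. Ccdc62 and Ccdc136, both linked to the acrosome, the enzyme sac of the sperm head, read 10.36, 9.74, 9.40 and 8.70 and 11.84, 11.37, 11.14 and 10.80 in the Sf1-Cre arrays, against 11.60 and 11.22 and 12.54 and 12.56 in the controls. Ccdc87, which acts in the acrosome reaction, fell by 4.01 in Sf1-Cre and by 4.95 in Dhh-Cre, and Ccdc146, a microtubule-associated protein of sperm, was at least 6.31-fold lower in each.

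A further 3 members of that list passed in 1 comparison or in neither. Ccdc157 had 10.69 and 9.02 in the controls, 9.45 and 9.43 in Dhh-Cre and 9.96, 10.05, 9.64 and 8.88 in Sf1-Cre, and it passed in neither comparison. Ccdc172, which binds a tektin in the sperm tail, read 9.30 and 9.51, 8.64 and 9.00, and 9.00, 8.65, 7.77 and 7.11: it passed in Sf1-Cre (-1.28 ± 0.48, adjusted p = 0.0396; lost without either control, either Dhh-Cre array or Sf1-Cre replicate 3, at 0.0527 to 0.166) and not in Dhh-Cre (-0.59 ± 0.56, adjusted p = 0.355). Ccdc183 passed in Dhh-Cre (-0.68 ± 0.24, adjusted p = 0.0313; lost without any 1 of the control or Dhh-Cre arrays, at 0.0622 to 0.136) and not in Sf1-Cre (-0.06 ± 0.21, adjusted p = 0.808). The difference between the mutant groups passed for none of these 3 (adjusted p = 0.803, 0.343 and 0.0669; limma).

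Among the deepest falls were those of genes on no role list. Ccdc185, on chromosome 1, read 11.51 and 12.02 in the controls, 4.06 and 4.60 in Dhh-Cre and 4.84, 4.11, 4.15 and 4.08 in Sf1-Cre. It was 177-fold lower in Sf1-Cre (-7.47 ± 0.28, adjusted p = 5.61e-07) and 173-fold lower in Dhh-Cre (-7.43 ± 0.33, adjusted p = 1.91e-06). Ccdc187, on chromosome 2, had 10.31 and 10.72 in the controls against 3.55 and 3.61 and 3.00, 3.21, 3.05 and 3.25, all 6 mutant arrays under the floor, which makes it at least 91.3-fold lower in either group. The mutant levels of those 2 genes were alike in both groups and lay at or near the floor, where levels have no order.

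Ccdc70 and Ccdc54 had control levels as high, 12.74 and 12.63 and 12.27 and 12.05, but another pattern in the mutants. Ccdc70 read 2.85 and 5.94 in Dhh-Cre and 9.58, 8.29, 7.60 and 6.79 in Sf1-Cre. Ccdc54 read 2.55 and 5.82 in Dhh-Cre and 7.72, 6.19, 5.43 and 5.01 in Sf1-Cre. In both genes the first Dhh-Cre array was under the floor and the second was about 3 log2 units above it, so the Dhh-Cre means rest on arrays that lie far apart. The Dhh-Cre difference was -8.29 ± 1.09 for Ccdc70 (adjusted p = 0.000193) and -7.97 ± 1.12 for Ccdc54 (adjusted p = 0.000291), with standard errors above those of the genes in the preceding paragraph. In the same arrays the median of the spermatid markers was 4.23 and 7.08. Among the 10 largest falls in either group there were also Ccdc116, Ccdc169, Ccdc81, Ccdc83, Ccdc7a and Ccdc175, with Sf1-Cre differences of -4.41, -4.68, -4.39, -3.08, -3.63 and -3.49, and Dhh-Cre differences of -4.41, -5.13, -6.40, -6.68, -6.13 and -6.73. Other than for Ccdc175, the Dhh-Cre values are bounds, with the mutant mean set to the floor it lies under, and so is the Sf1-Cre value of Ccdc116.

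Ccdc3, Ccdc80 and Ccdc8 rose most in Sf1-Cre, and Ccdc22, Ccdc102a and Ccdc69 in Dhh-Cre, ranked with means under the floor set to it. Ccdc3 encodes a secreted protein known from fat and blood vessels. Ccdc3 read 4.17 and 4.48 in the controls, 6.40 and 6.41 in Dhh-Cre and 8.53, 9.25, 9.96 and 9.77 in Sf1-Cre. The groups did not overlap, and Sf1-Cre lay above Dhh-Cre: the rise was 33.3-fold in Sf1-Cre (5.06 ± 0.37, adjusted p = 9.06e-06) and 4.24-fold in Dhh-Cre (2.08 ± 0.43, adjusted p = 0.00237). Ccdc80, which encodes a protein of the extracellular matrix, showed the same order, with 5.06 and 4.61 in the controls, 7.87 and 7.19 in Dhh-Cre and 8.91, 9.14, 9.32 and 9.59 in Sf1-Cre. It rose 21.2-fold in Sf1-Cre (4.41 ± 0.26, adjusted p = 3.36e-06) and 6.5-fold in Dhh-Cre (2.70 ± 0.30, adjusted p = 8.75e-05). Ccdc126 rose by 1.35 and 1.25, which under housekeeping centring became -0.34 and -0.44, and Ccdc134, a secreted protein linked to kinase signalling, fell by 1.14 and by 1.05.

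Genes of signalling and the cytoskeleton rose in 8 of 11 tested members in each comparison, where 46.6% and 49.1% of all genes did, with a median of 1.70 in Sf1-Cre and 2.18 in Dhh-Cre (1.13 and 1.38 with means under the floor set to it). Among the risen, at least Ccdc68, Ccdc69 and Ccdc8 needed mutant arrays to enter the test. Ccdc68 and Ccdc69 lay under the floor in both controls and Ccdc8 in the second. Ccdc68 and Ccdc102a, of the centriole and centrosome, were counted in this list and not with the centrosomal genes. Under housekeeping centring 5 of the 11 were called higher and 4 lower in each comparison. Ccdc68, which anchors microtubules at the mother centriole, read 3.41 and 2.98 in the controls, 5.29 and 5.46 in Dhh-Cre and 7.34, 7.02, 8.24 and 7.93 in Sf1-Cre. Ccdc8, a subunit of the 3M complex that controls growth through a ubiquitin ligase, read 4.48 and 3.46 in the controls, 6.50 and 6.74 in Dhh-Cre and 8.29, 8.14, 8.72 and 8.02 in Sf1-Cre. Both were near or under the floor in the controls and highest in Sf1-Cre, at least 12.4-fold and at least 19.6-fold above control. Ccdc102a, of the centrosome, rose by 3.11 and 3.69, and Ccdc85b, a regulator of transcription and Wnt signalling, by 2.96 and 3.10. Ccdc149, on no role list, was at least 12.6-fold and at least 8.62-fold higher.

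Ccdc69, a regulator of the mitotic spindle midzone, ran the other way between the mutants. It read 3.42 and 3.49 in the controls, 7.20 and 7.16 in Dhh-Cre and 5.41, 4.84, 4.95 and 5.34 in Sf1-Cre, so that every Dhh-Cre array was above every Sf1-Cre array. Both controls lie under the floor, so the rise was at least 9.08-fold in Dhh-Cre (adjusted p = 5.11e-06) and at least 2.19-fold in Sf1-Cre (adjusted p = 9.22e-05), and the fitted Sf1-Cre difference was -0.018 under housekeeping centring. The 3 girdin relatives in the list fell instead: Ccdc88a, which encodes girdin, an actin-binding protein, by 0.87 and by 1.19, Ccdc88b by 1.97 and by at least 2.37, and Ccdc88c, the Wnt regulator Daple, by 1.60 and by 1.42 in Sf1-Cre and Dhh-Cre. Ccdc88b is known from immune cells, while 14 of 15 macrophage markers rose in each group, with summed intensities of 12136 to 16310 in the controls, 28831 to 28961 in Dhh-Cre and 35723 to 40868 in Sf1-Cre. Whether its fall and their rise are linked was not tested.

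Centrosomal, nuclear and mitochondrial Ccdc genes moved in both directions. Of 10 tested centrosomal members, 3 were higher and 4 lower in each comparison, 30% and 40%. All tested genes had 46.6% higher and 33.2% lower in Sf1-Cre, and 49.1% and 30.5% in Dhh-Cre. Ccdc28b, which encodes a modifier of the Bardet-Biedl syndrome proteins at the cilium base, rose from 10.32 and 10.13 in the controls to 12.51 and 12.51 in Dhh-Cre and 11.85, 12.00, 12.21 and 12.51 in Sf1-Cre, whereas its relative Ccdc28a fell from 8.85 and 9.09 to 8.14 and 7.44 and 6.85, 6.90, 7.03 and 7.26. The difference was 1.92 ± 0.20 and 2.28 ± 0.23 for Ccdc28b, and -1.96 ± 0.22 and -1.18 ± 0.26 for Ccdc28a, in Sf1-Cre and Dhh-Cre. Ccdc84, which acts at the centrosome and in splicing of a minor class of introns, rose by 1.51 and 1.59 as deposited and stood at -0.19 and -0.11 under housekeeping centring. Ccdc13 fell by 2.57 and by 4.28, and Ccdc57, of the centriolar satellites, by 1.51 and by 1.50.

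Of 14 members acting in the nucleus, on RNA or on ribosomes, 5 were higher and 5 lower in Sf1-Cre, and 4 higher and 5 lower in Dhh-Cre. That is 35.7% each way in Sf1-Cre, against 46.6% higher and 33.2% lower of all tested genes. In Dhh-Cre it is 28.6% higher and 35.7% lower, against 49.1% and 30.5%. The falls were Ccdc106, a partner of p53 (-2.23 and -2.13), Ccdc117 (-1.48 and -2.49), the splicing factor gene Ccdc130 (-1.30 and -1.94) and the nucleolar Ccdc86 (-1.56 and -0.95) in both groups, with Ccdc124, a ribosome-binding protein, in Sf1-Cre (-0.80, and -0.24 with adjusted p = 0.388 in Dhh-Cre) and Ccdc174 in Dhh-Cre (-0.42, and -0.34 with adjusted p = 0.0557 in Sf1-Cre). Neither of those 2 genes passed between the mutant groups (adjusted p = 0.088 and 0.721; limma). Ccdc12, Ccdc137, Ccdc25 and Ccdc59 rose in both, by 0.46 (Ccdc59) to 1.13 (Ccdc137) in Sf1-Cre for those read above the floor in the controls, and Ccdc12, Ccdc137 and Ccdc59 turn to falls under housekeeping centring. Mitochondrial members were few: of 4, 2 were higher and 1 lower in Sf1-Cre, and 1 higher and 1 lower in Dhh-Cre. That is 50% and 25%, then 25% and 25%, beside the shares of all tested genes just given. Ccdc51, a subunit of a potassium channel, rose in both groups, at least 1.43-fold and at least 1.33-fold, a difference which housekeeping centring turns to -0.21 and -0.31. Ccdc58 was called higher and Ccdc90b lower in Sf1-Cre, and Ccdc127 lower in Dhh-Cre. Each of these calls was lost in some fits that left out an array.

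Ccdc22 and Ccdc93 encode partner subunits of the CCC complex, which with Commd proteins and the WASH complex returns membrane proteins from endosomes to the cell surface. Ccdc22, on chromosome X, read 5.90 and 5.45 in the controls, 9.63 and 9.28 in Dhh-Cre and 8.75, 9.00, 9.29 and 9.46 in Sf1-Cre, a rise of 10.9-fold in Sf1-Cre (3.45 ± 0.24, adjusted p = 6.96e-06) and 13.7-fold in Dhh-Cre (3.78 ± 0.28, adjusted p = 1.19e-05). Its probe set has the suffix _x_at, which the manufacturer gives to sets with probes that can match other transcripts, and its second probe set was not tested. The CCC and WASH partner genes rose too: 15 of 19 in each comparison (78.9%), with medians of 1.23 and 1.19, and 2 fell. The share is near that of the housekeeping genes, of which 10 of 13 (76.9%) were called higher, and 46.6% and 49.1% of all genes were. Under housekeeping centring 4 of the 19 were called higher and 9 lower in Sf1-Cre, and 3 higher and 8 lower in Dhh-Cre. Commd7 rose by 2.87 and 2.86 and Washc5 by 2.17 and 2.24, while Dennd10 fell by 1.52 and by 2.20. The probe set that represents Ccdc93 by the rule fell from 11.14 and 10.86 to 6.83 and 6.87 in Dhh-Cre and 8.16, 7.26, 6.49 and 6.49 in Sf1-Cre. A second Ccdc93 probe set, 1434953_at, rose from 5.55 and 6.00 to 8.35 and 8.11 and 7.79, 8.07, 8.37 and 8.44. Fitted by itself, the first differed by -3.90 ± 0.44 in Sf1-Cre (adjusted p = 7.04e-05) and the second by 2.39 ± 0.23 (adjusted p = 2.78e-05).

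Such splits within a gene were not limited to Ccdc93. The fit of every probe set by itself was chosen after seeing the data. Over 37 genes with further tested probe sets, 57 probe sets could be set against the one used. In Sf1-Cre against control, 9 of the 57, from 7 genes, had the opposite sign, and for 5 of them, from Ccdc50, Ccdc6, Ccdc91 and Ccdc93, both probe sets passed. In Dhh-Cre the number was 6, with Ccdc127 added. Ccdc171, Ccdc69 and Ccdc88a also had probe sets that disagreed in sign, without both passing. Ccdc91 encodes a protein that binds sorting adaptors at the trans-Golgi network. Its used probe set fell from 12.64 and 12.41 to 5.38 and 6.73 in Dhh-Cre and 7.08, 6.39, 6.33 and 5.65 in Sf1-Cre, and a second, 1453605_s_at, fell from 10.65 and 10.24 to 4.33 and 4.98 and 5.26, 5.08, 4.89 and 4.95. The third, 1449083_at, rose from 7.03 and 6.65 to 7.77 and 7.65 and 7.38, 7.28, 7.83 and 7.97 (0.78 ± 0.23 in Sf1-Cre, adjusted p = 0.0146).

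Ccdc50, an effector of growth factor signalling, is counted among the risen genes because its probe set of the highest mean, 1433995_s_at, rose from 5.92 and 5.57 to 7.75 and 8.20 in Dhh-Cre and 8.69, 8.53, 8.76 and 8.89 in Sf1-Cre. Its probe set 1431072_a_at, the brightest of them in the controls, fell from 10.78 and 10.81 to 5.80 and 5.93 and 7.24, 6.57, 6.26 and 6.23, by 4.22 ± 0.28 in Sf1-Cre (adjusted p = 3.88e-06). Another, 1420522_at, fell from 7.07 and 6.93 to 5.59 and 5.64 and 5.71, 5.43, 5.01 and 6.02. Ccdc6, a tumour suppressor known as a fusion partner of Ret, rose by 0.58 ± 0.15 on the probe set used (lost in the fit by gene without control replicate 2, adjusted p = 0.054), while its second probe set, 1459159_a_at, went from 7.20 and 6.95 in the controls to under the floor in all 6 mutant arrays. Under the mean of all probe sets both genes turn sign, to -0.53 in Sf1-Cre and -0.84 in Dhh-Cre for Ccdc50 and to -1.85 and -1.76 for Ccdc6. The Affymetrix suffix _a_at marks probes shared by transcripts of 1 gene, and which transcripts each probe set reads was not examined.

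**Figure D3:**
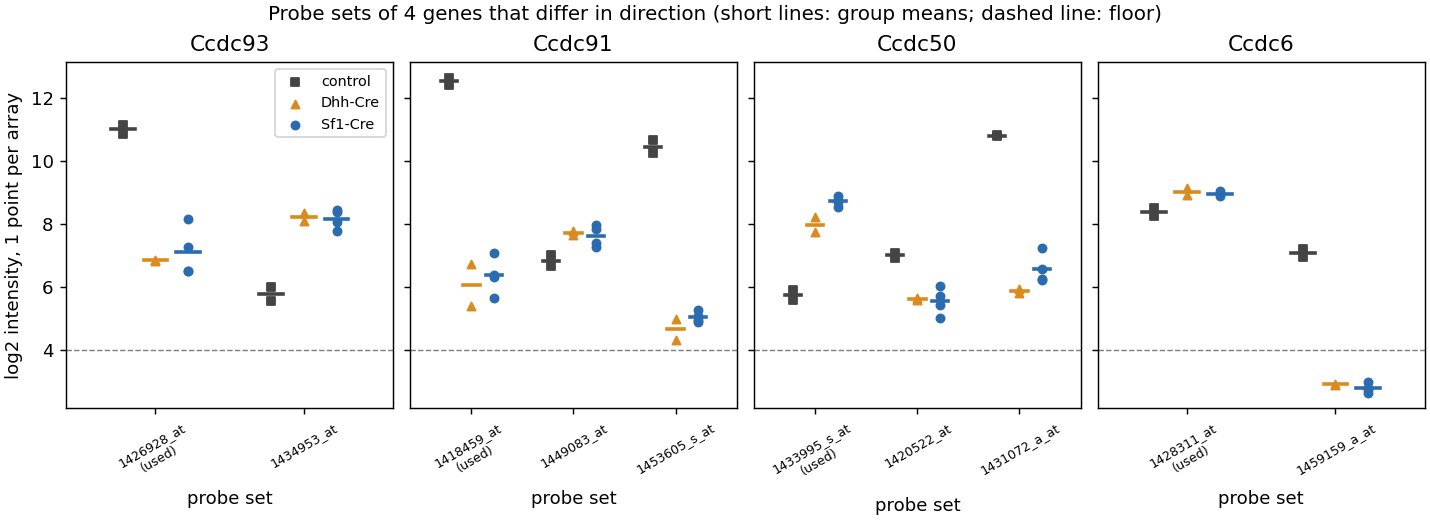
Log2 intensity in each array for the tested probe sets of Ccdc93, Ccdc91, Ccdc50 and Ccdc6; squares are control, triangles Dhh-Cre and circles Sf1-Cre, short lines are group means and the dashed line is the floor of 4. In each gene 1 probe set lies higher in the mutant arrays than in the controls and at least 1 other lies lower.

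Chromosome X carried 3 Ccdc genes, Ccdc22, Ccdc120 and Ccdc160, and all 3 were higher in both mutant groups; 69.8% of the 464 tested X-linked genes were. Ccdc160 read 7.53 and 7.48 in the controls, 9.48 and 9.61 in Dhh-Cre and 8.35, 8.10, 8.24 and 7.94 in Sf1-Cre. Ccdc120, which acts at the subdistal appendages of centrioles, read 4.26 and 4.54, 6.31 and 5.84, and 5.27, 5.05, 5.04 and 5.51. In both genes every Dhh-Cre array was above every Sf1-Cre array, and the difference between the mutant groups passed (-1.39 ± 0.15, adjusted p = 0.00111, and -0.86 ± 0.21, adjusted p = 0.0218). Under housekeeping centring the Sf1-Cre differences from control turn to -1.04 for Ccdc160 and -0.88 for Ccdc120, and the Sf1-Cre call of Ccdc120 against control was lost without control replicate 1 (adjusted p = 0.0635). The call for Ccdc120 between the mutants was lost without Sf1-Cre replicate 2 (adjusted p = 0.0553), without Sf1-Cre replicate 3 (0.0521) and without Dhh-Cre replicate 1 (0.174), with the direction kept in each.

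The mutant groups were also compared directly. In Sf1-Cre against Dhh-Cre, 32 of the 112 Ccdc genes were called higher, against 12.9% of all tested genes, and 6 lower, against 11.8%, which is 38 in all against 24.6%. The count rests on few arrays: without Dhh-Cre replicate 1, the calls fell from 38 to 9 (7 higher and 2 lower), without Sf1-Cre replicate 2 to 23 (20 and 3), and without Dhh-Cre replicate 2 to 20 higher and 6 lower. Of 32 named genes called in either direction between the mutants, 7 kept their call under each of the 21 other planned settings of the processing: Ccdc13, Ccdc160, Ccdc3, Ccdc30, Ccdc68, Ccdc69 and Ccdc80. With the 3 arrays that carry epididymis markers left out, a setting added after seeing the data, Ccdc13 and Ccdc68 did not pass. All 7 higher calls without Dhh-Cre replicate 1 were among the 32 higher calls: Ccdc13, Ccdc3, Ccdc30, Ccdc68, Ccdc7a, Ccdc80 and Ccdc88b. With every value under the floor set to it, 12 were called higher and 4 lower. Of the 60 genes lower in both mutant groups, 26 were higher in Sf1-Cre than in Dhh-Cre, which is 43.3% against 25.2% of all genes lower in both, and 2, Ccdc28a and Ccdc86, were lower, against 2.89%. Among the 30 risen genes, 5 were higher in Sf1-Cre (Ccdc3, Ccdc50, Ccdc68, Ccdc8 and Ccdc80; 8.25% of all risen genes) and 3 lower (Ccdc120, Ccdc160 and Ccdc69; 11.7%).

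The 5 largest fitted differences between the mutants were those of Ccdc83, Ccdc70, Ccdc7a, Ccdc175 and Ccdc30. Ccdc83 read 3.23 and 3.92 in Dhh-Cre and 8.90, 7.99, 7.33 and 6.17 in Sf1-Cre, against 10.67 and 10.69 in the controls, and it was at least 12.1-fold higher in Sf1-Cre (adjusted p = 0.00519). Ccdc7a read 3.06 and 3.01 in Dhh-Cre and 7.84, 6.79, 5.85 and 5.55 in Sf1-Cre, at least 5.68-fold higher (adjusted p = 0.00546). Both Dhh-Cre means lie under the floor, so their ranks have no firm order; as a bound, Ccdc7a falls below Ccdc30. Ccdc30, one of the brightest Ccdc genes in the controls at 12.69 and 12.95 (its Sf1-Cre call against control was lost without control replicate 2, adjusted p = 0.0529), was measured well above the floor in both groups, at 8.11 and 7.82 in Dhh-Cre and 12.09, 11.28, 10.86 and 10.38 in Sf1-Cre, and was 9.09-fold higher in Sf1-Cre (3.18 ± 0.42, adjusted p = 0.00232). Ccdc175 and Ccdc70 differed by 3.24 ± 0.65 and 3.67 ± 0.94, each with the first Dhh-Cre array under the floor. The called differences in the other direction were led by Ccdc69 (-2.05 ± 0.19, adjusted p = 0.000574), Ccdc160, Ccdc120, Ccdc97, a partner of a splicing factor (-0.78), and Ccdc28a (-0.78).

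All 13 axonemal Ccdc genes had a higher mean in Sf1-Cre than in Dhh-Cre, by a median of 1.53, and 9 passed: Ccdc103, Ccdc105, Ccdc113, Ccdc114, Ccdc189, Ccdc40, Ccdc63, Ccdc65 and Ccdc96. Of the 37 axonemal partners 24 passed the same way, with a median of 1.64. Without Dhh-Cre replicate 1, 0 of the 13 were called (limma), with a lowest adjusted p of 0.0586, although all 13 kept the direction, 8 had an unadjusted p under 0.05 and the median was 1.43. Ccdc105 and Ccdc63 passed against a Dhh-Cre mean under the floor. The fits without Dhh-Cre replicate 2 and without Sf1-Cre replicate 2 called 4 and 6. Ccdc151, Ccdc173, Ccdc181 and Ccdc39 did not pass between the groups, at 0.82 ± 0.47 (Dhh-Cre mean under the floor), 1.24 ± 0.46, 0.91 ± 0.31 and 0.61 ± 0.34.

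**Figure D4:**
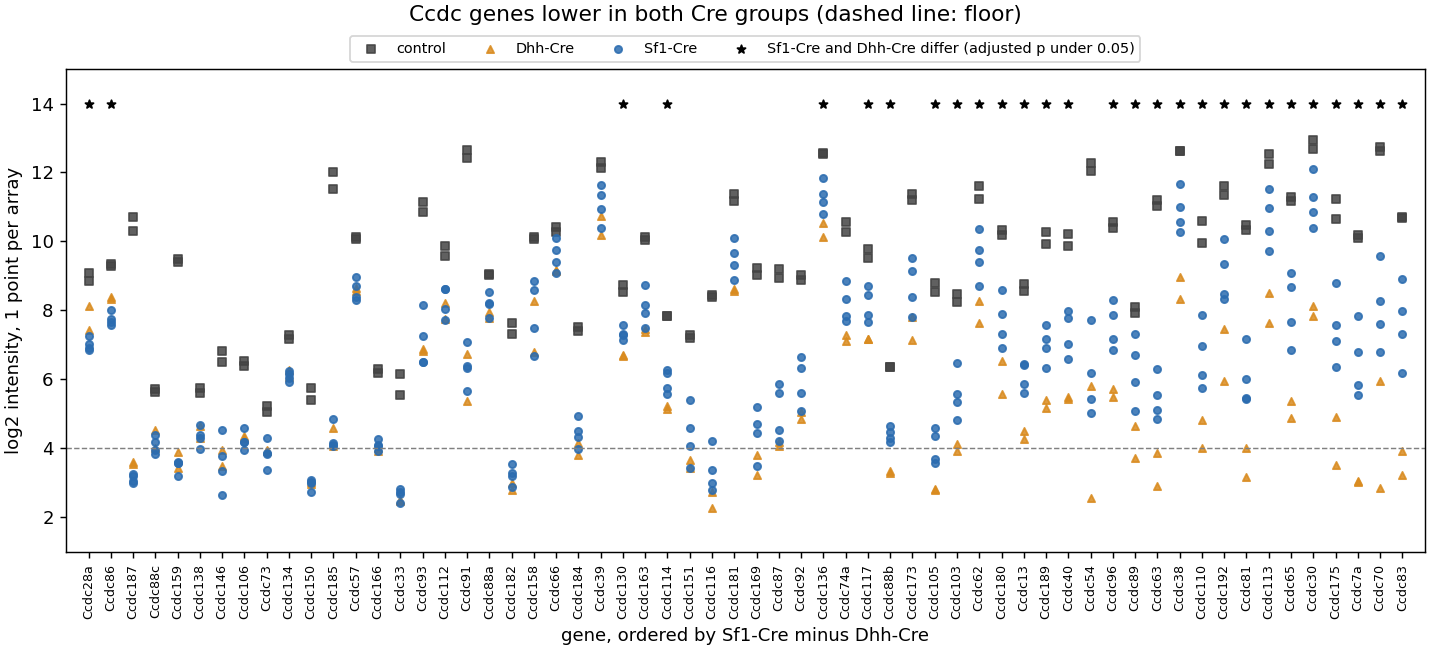
Log2 intensity of the 60 Ccdc genes called lower in both Cre groups, 1 point per array (grey squares control, orange triangles Dhh-Cre, blue circles Sf1-Cre), ordered by Sf1-Cre minus Dhh-Cre; stars mark genes that pass between the mutant groups and the dashed line is the floor of 4. Of the starred genes, Ccdc28a and Ccdc86 at the far left have the lower mean in Sf1-Cre and the other 26, towards the right, the higher, and genes such as Ccdc187 and Ccdc159 lie under the floor in both.

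The Sf1-Cre arrays differed among themselves in what they retained of the lost genes. Replicate 1 was the highest of the 4 for 50 of the 60 genes lower in both, 83.3%, against 76.3% of all genes lower in both, and replicate 4 was the lowest for 48, 80%, against 61.8%. The first Dhh-Cre array lay below the second for 44 of the 60, 73.3%, against 65.1%. The median log2 level of these 60 genes lay at 9.94 to 9.96 in control, at 4.75 and 5.30 in Dhh-Cre and at 5.95 to 7.58 in Sf1-Cre. The median of the spermatid markers was 4.23 and 7.08 in Dhh-Cre and 6.31 to 8.58 in Sf1-Cre, against 12.16 to 12.22 in the controls. Its order of the mutant arrays was not the same. For these markers Dhh-Cre replicate 2, at 7.08, lay above Sf1-Cre replicates 3 and 4, at 7.04 and 6.31. For the 60 Ccdc genes that array, at 5.30, lay below every Sf1-Cre array. Sf1-Cre replicate 1 was also the array with the most epididymis signal, and replicate 3 carried some. Without those and Dhh-Cre replicate 1, a setting chosen after seeing the data that leaves 1 Dhh-Cre array, 59 Ccdc genes were lower in both mutant groups and 27 higher in both, while calls between the mutants fell to 7 (5 higher and 2 lower). Spermatocyte markers, of cells in meiosis, lost less: their summed intensity was 47274 to 47700 in the controls, 23173 to 26550 in Dhh-Cre and 14365 to 28635 in Sf1-Cre.

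The 30 risen Ccdc genes had no such spread. Their median level was 5.13 and 5.36 in the controls, 7.20 to 7.60 in Dhh-Cre and 8.12 to 8.53 in Sf1-Cre. Besides the fibroblast list, 8 of 8 tested endothelial markers rose in each group, and 9 of 11 peritubular markers in Sf1-Cre and 10 in Dhh-Cre, and 7 and 6 of 8 Leydig markers. Of all tested genes 46.6% were called higher in Sf1-Cre and 49.1% in Dhh-Cre. The peritubular summed intensity was 8570 to 8668 in the controls, 16752 to 19942 in Dhh-Cre and 11030 to 13055 in Sf1-Cre. Sertoli markers rose in 12 of 19 in Sf1-Cre, with 4 lower, and in 15 in Dhh-Cre, with 1 lower. Markers of granulosa cells of the ovary rose in 8 of 8 in Sf1-Cre and in 6 in Dhh-Cre, and their summed intensity was 917 to 946 in the controls, 4740 to 5660 in Dhh-Cre and 6310 to 8468 in Sf1-Cre. Housekeeping centring changed these counts, given here as higher and lower in Sf1-Cre, then in Dhh-Cre. Of 10 fibroblast markers they were 7 and 2, then 7 and 1, and of 9 endothelial markers 4 and 2, then 3 and 3. Peritubular markers had 1 and 5, then 1 and 1, and Leydig markers 4 and 0 in each. Sertoli markers had 5 and 12, then 5 and 8, and 9 granulosa markers 7 and 1, then 6 and 1. Which of those cells carry the risen Ccdc transcripts was not tested.

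**Figure D5:**
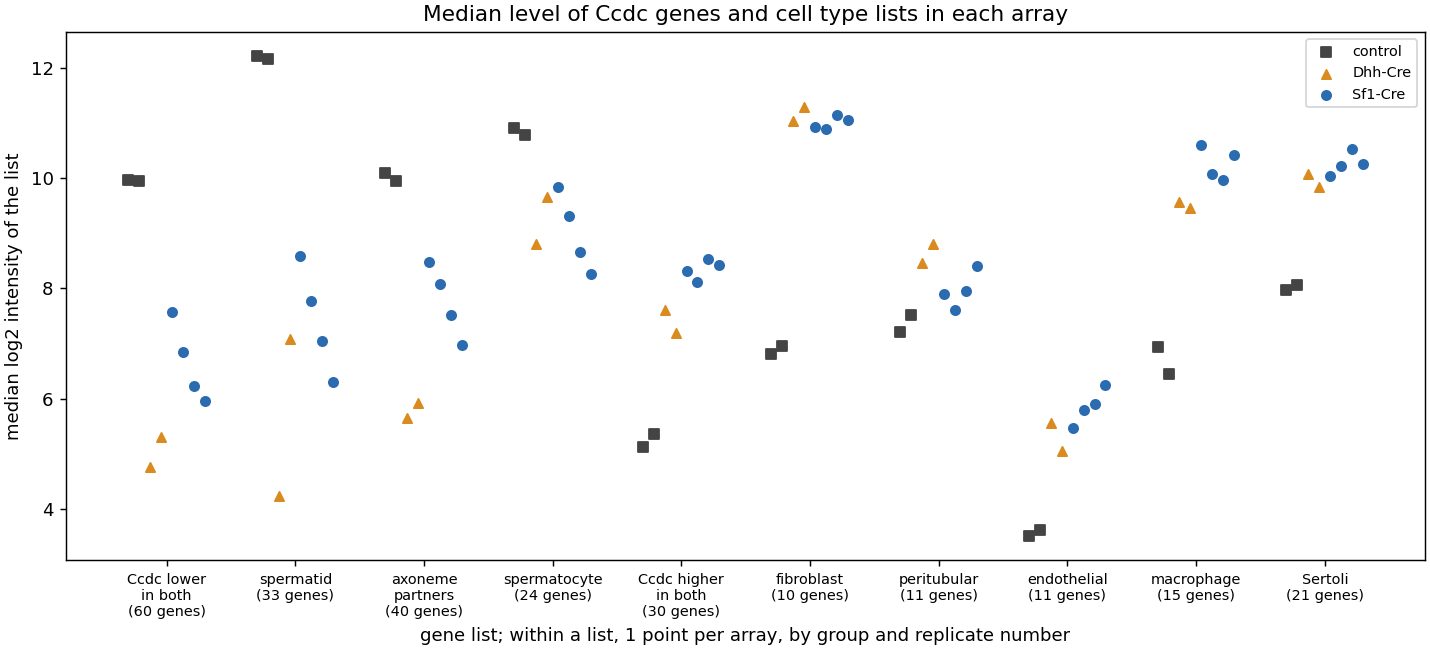
Median log2 intensity, in each array, of the 60 Ccdc genes lower in both Cre groups, the 30 higher in both, and lists of cell type markers and axonemal partners; squares are control, triangles Dhh-Cre and circles Sf1-Cre, in order of replicate number. The lost Ccdc genes, the spermatid markers and the axonemal partners are highest in the controls and spread among the Sf1-Cre arrays, whereas the risen Ccdc genes and the fibroblast and macrophage markers are lowest in the controls.

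Genes that once carried a Ccdc symbol and now carry another lie outside the rule. This list was chosen after seeing the data. Of 39 tested, 24 were lower and 8 higher in Sf1-Cre, 61.5% and 20.5%, against 33.2% and 46.6% of all tested genes. In Dhh-Cre 21 were lower and 8 higher, 53.8% and 20.5%, against 30.5% and 49.1%. The members Drc1 (formerly Ccdc164), Cfap45 (Ccdc19), Cfap53 (Ccdc11) and Cfap65 (Ccdc108), renamed for the axoneme, all fell in both. They are also among the axonemal partner genes given above, so their falls are not a separate observation. Mcu and Mcur1, formerly Ccdc109a and Ccdc90a, which serve calcium uptake into mitochondria, rose, by 2.25 and 3.43 in Sf1-Cre and by 1.78 and 2.76 in Dhh-Cre. Cep85, formerly Ccdc21, a centrosomal gene, had mean log2 levels of 8.33 in the controls, 9.90 in Dhh-Cre and 4.02 in Sf1-Cre. By limma the fall in Sf1-Cre passed (-4.31, adjusted p = 0.00513), and so did the difference between the mutants (-5.88, adjusted p = 0.00695). The difference of Dhh-Cre from control did not (1.56, adjusted p = 0.254).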

How the data were processed

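Testis RNA of 8 samples, which the labels call biological replicates, was hybridized to 1 array each. The submitters extracted it with TRIzol and labelled it with biotin by in vitro transcription, per the labels' protocols. The deposited intensity values were made with GCRMA, per the submitters' processing notes; its version, its settings and the build are not stated there. They are linear, and their log2 was taken here. Symbols and chromosomes follow GRCm38.p6 by Entrez identifier, which matched 34754 of the 34958 probe sets with 1 symbol. The 3 group means were fitted to all 8 arrays with limma 3.58.1 (R 4.3.3; tables read by data.table, version 1.17.8), with 5 residual and 2.73 prior degrees of freedom. P-values are 2-sided and adjusted by Benjamini and Hochberg over all 13802 tested genes, and an adjusted p under 0.05 passes. For fits of single probe sets they are adjusted over all tested probe sets with 1 symbol. The script was tested on simulated data. Errors are limma's standard errors (SE). Folds against a mean under log2 4 are bounds against that floor.

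The members and the lists of roles, partners and markers were chosen with earlier results of these data known. Named are the 10 largest falls and rises per Cre line whose arrays do not overlap control, the 5 largest differences each way between the lines, members of role lists, sets of related members and members whose probe sets disagree. Ccdc180, Ccdc167 and Ccdc32 and the former Ccdc genes were named after their values were seen. Alternatives were quantile normalization, housekeeping centring, no filter or one at log2 6, trended robust moderation, array weights, fits limited to the compared groups, averaging a gene's probe sets, values under log2 4 set to 4, stricter thresholds, symbols as listed, a replicate block, and leaving out each array; leaving out 3 arrays with epididymis markers was added after seeing the data. Figures used Python 3.11.15, pandas 2.3.3 and matplotlib 3.10.9.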

Additional observations from a re-analysis of the deposited data

Results flagged for a closer look

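In 74 groups of 4 Sf1-Cre arrays, 1 per named gene, a single array lay apart from the other 3 in 2 (Dixon's test at 95%, which flags about 1 in 20 groups by chance). Sf1-Cre replicate 2 stood at 3.20 for Ccdc159, below the others, and Sf1-Cre replicate 1 at 4.84 for Ccdc185, above them. Both genes lie at or near the floor of log2 4 in all mutant arrays, where levels have no order.

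The level of 38 Ccdc genes differed between the mutant groups, by limma's direct test of Sf1-Cre against Dhh-Cre at an adjusted p under 0.05. The log2 difference was below 0 for 6 genes: Ccdc69 at -2.05, Ccdc160 at -1.39, Ccdc120 at -0.86, Ccdc97 at -0.78, Ccdc28a at -0.78 and Ccdc86 at -0.61. It was above 0 for 32 genes, of which those under 2 were Ccdc130 at 0.63, Ccdc50 at 0.74, Ccdc114 at 0.75, Ccdc136 at 0.97, Ccdc117 at 1.01, Ccdc88b at 1.08, Ccdc105 at 1.26, Ccdc153 at 1.31, Ccdc103 at 1.53, Ccdc62 at 1.60, Ccdc180 at 1.62, Ccdc8 at 1.67, Ccdc80 at 1.70, Ccdc13 at 1.71, Ccdc189 at 1.72, Ccdc40 at 1.88 and Ccdc96 at 1.94. Those of 2 or more were Ccdc89 at 2.06, Ccdc63 at 2.07, Ccdc38 at 2.24, Ccdc68 at 2.25, Ccdc110 at 2.26, Ccdc192 at 2.34, Ccdc81 at 2.43, Ccdc113 at 2.56, Ccdc65 at 2.94, Ccdc3 at 2.97, Ccdc30 at 3.18, Ccdc175 at 3.24, Ccdc7a at 3.47, Ccdc70 at 3.67 and Ccdc83 at 4.02. For Ccdc105, Ccdc63, Ccdc7a, Ccdc81, Ccdc83 and Ccdc88b the Dhh-Cre mean lies under the floor, so these fitted values give no firm size. Dhh-Cre had 2 arrays, and without the first of them 9 of the 38 passed.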

How the results depend on the processing

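Under all 21 alternatives listed with the methods, the added one aside, 46 of the 66 named genes called in Sf1-Cre against control kept their direction and call, 48 of 65 in Dhh-Cre against control, and 7 of 32 between the mutant groups. Setting values under log2 4 to 4 or an adjusted p under 0.01 each ended 16 of those 32 calls, and leaving out Dhh-Cre replicate 1 ended 23. Centring each array on housekeeping genes left 9 Ccdc genes higher in Sf1-Cre and 9 in Dhh-Cre than in control, and 7 higher in both. It turned the sign of the log2 difference from control for Ccdc120 -0.88, Ccdc126 -0.34, Ccdc137 -0.57, Ccdc160 -1.04, Ccdc171 -1.57, Ccdc47 -0.98, Ccdc51 -0.21, Ccdc58 -1.17, Ccdc6 -1.12, Ccdc69 -0.018, Ccdc71l -1.56, Ccdc84 -0.19 and Ccdc92b -1.48 in Sf1-Cre, and for Ccdc120 -0.021, Ccdc126 -0.44, Ccdc137 -0.69, Ccdc171 -1.46, Ccdc47 -1.20, Ccdc51 -0.31, Ccdc58 -1.21, Ccdc6 -1.06, Ccdc71 -1.43, Ccdc71l -1.46, Ccdc84 -0.11, Ccdc92b -1.56 and Ccdc97 -1.31 in Dhh-Cre. Averaging all probe sets of a gene turned the sign for Ccdc127 0.61, Ccdc171 -0.65, Ccdc50 -0.53 and Ccdc6 -1.85 in Sf1-Cre, and for Ccdc127 0.47, Ccdc171 -0.73, Ccdc50 -0.84 and Ccdc6 -1.76 in Dhh-Cre. Asking for at least a 2-fold change left 22 higher in Sf1-Cre than in control and 2 lower in Sf1-Cre than in Dhh-Cre.

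Between the mutant groups, setting values under log2 4 to 4 left 16 calls (12 higher), an adjusted p under 0.01 left 16 (14 higher and 2 lower), and 41 higher and 3 lower passed with the replicate number as a block. Leaving out 1 array at a time gave 9 to 48 calls between the mutants (7 to 41 higher and 2 to 7 lower), 82 to 99 in Sf1-Cre against control (29 to 34 higher and 52 to 66 lower), 84 to 96 in Dhh-Cre against control (29 to 32 higher and 54 to 66 lower), 50 to 62 genes lower in both and 25 to 32 higher in both. Without the 3 arrays that carry epididymis markers, chosen after seeing the data, 7 calls between the mutants were left (5 higher and 2 lower). Fits without a control array test fewer genes, since a gene read only in the controls then has 1 array at the floor. The deviations of same-numbered arrays of different groups from their group means had r from -0.19 to 0.38. In a group of 2 arrays the deviations mirror each other, so these values cannot show whether the numbers pair the arrays. With the block, the Sf1-Cre and Dhh-Cre calls against control were 90 and 95. The small number of arrays limits every value, and levels under the floor have no order.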
